A study of Mus musculus with 23 samples.

Results

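Has1 and Has2 encode hyaluronan synthases and Cd44 encodes the main cell surface receptor for hyaluronan. Every probe set whose platform annotation names 1 of these 3 genes alone was taken, which gave 5 of the 12488 probe sets on the array. Has1 had the probe set 100716_at, Has2 had 98865_at, and Cd44 had 103003_i_at, 103004_r_at and 103005_s_at. A further 0 probe sets named a member together with another gene. All 5 were tested, since no filter on low values was applied.

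Hyaluronan is a long unbranched chain of alternating glucuronic acid and N-acetylglucosamine. The synthases sit in the plasma membrane, join the sugars from UDP-glucuronic acid and UDP-N-acetylglucosamine, and push the growing chain out of the cell. Fibroblasts are a main source of this polymer in connective tissue, where a hyaluronan-rich coat surrounds dividing and migrating cells, and CD44 holds the coat at the cell surface and connects it to actin through the ezrin, radixin and moesin proteins.

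The cells were primary mouse embryonic fibroblasts from embryos of stage E14.5. The labels give 1 genotype for all 23 arrays, C57/BLACK6 and ATF1 -/+, so starved and treated cells alike carried the altered Atf1 allele. The array's Atf1 probe set is annotated with a second gene as well, so no Atf1 value is given. Cultures were starved for 48 h in 1% dialyzed serum and then spent 2 h with 200 µM 4-thiouridine and tritiated cytidine in 1% serum (starved) or 10% serum (treated). RNA made in those 2 h carries the thiol of 4-thiouridine and was captured on an organomercurial matrix as newly transcribed RNA. The other kinds were total RNA and amplified total RNA. Among the labels only the titles tell these apart, because the label protocol gives linear amplification for all samples. There were 4 arrays in 5 of the 6 groups and 3 in the amplified starved group. The titles call the arrays biological replicates, and no source used here says which shared a culture or litter, so that the p-values measure the spread between these arrays. The comparisons ask how the genes responded to serum in RNA made during the labelling time and in the whole RNA pool.

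Median deposited intensities per array ran from 7.3 to 75.2, and the lowest was that of amplified starved array 1. Newly transcribed and amplified arrays fell into 2 clusters, each of which held starved and treated arrays: newly transcribed arrays 1 and 4 with amplified starved 1 and 3 and amplified treated 1 and 4, and newly transcribed arrays 2 and 3 with amplified starved 2 and amplified treated 2 and 3. The 3' probe set of Gapdh exceeded its 5' probe set by 2.16 ± 0.65 (SD, n = 8, log2) in newly transcribed and by 1.55 ± 0.60 (n = 7) in amplified RNA, against -0.20 ± 0.11 (n = 8) in total RNA. Single arrays ran from 0.70 to 2.19 in amplified and from -0.32 to -0.06 in total RNA, without overlap. All 13 fibroblast markers were measured, and 1 of them had a mean percentile below the array median. Endothelial and epithelial markers lay mostly low, with 8 of 9 below the median in each list. Macrophage and leukocyte markers did not: 2 of 12 lay below the median, the list's median percentile was 85.0, and 0 were at 0 on all arrays. In bulk RNA, fewer cells of a type and less RNA per cell cannot be told apart.

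Promoter windows are shown first for the members that a RefSeq promoter table of build GRCm38.p6 held, Has1 and Cd44, because both were higher in treated than in starved newly transcribed RNA in every replicate number. Each is the 250 bases before the start that the promoter table gives for the gene, given 5′ to 3′ on the minus strand, and capitals mark a cAMP response element (CRE, TGACGTCA), the palindrome bound by the CREB and ATF family of factors. The Has1 window lies at chr17:17855189-17855438 and the Cd44 window at chr2:102901666-102901915. The RefSeq gene record of Has1 (chr17:17833691-17855589) reaches 401 bases further upstream than that start, so the Has1 window lies inside the record. The Cd44 record reaches 4 bases beyond its start.
Has1: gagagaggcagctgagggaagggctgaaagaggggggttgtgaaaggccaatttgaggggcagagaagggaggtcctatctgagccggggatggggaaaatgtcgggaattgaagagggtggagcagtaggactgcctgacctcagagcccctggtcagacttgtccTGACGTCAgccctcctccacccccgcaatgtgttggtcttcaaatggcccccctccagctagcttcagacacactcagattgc
Cd44: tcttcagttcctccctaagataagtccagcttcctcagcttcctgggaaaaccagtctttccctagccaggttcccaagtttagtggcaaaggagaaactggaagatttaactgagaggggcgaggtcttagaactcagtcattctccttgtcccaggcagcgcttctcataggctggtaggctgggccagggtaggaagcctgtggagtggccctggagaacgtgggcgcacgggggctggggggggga
The Has1 window held 1 full CRE, with its first base 83 bases before the start. Of 32851 windows of the same length in the table, 1.55% held this motif. The shorter core TGACG matched on each strand inside this CRE and nowhere else in the window. No match to 6 other motifs was found in either window, searched on both strands: AP-1 (TGANTCA), STAT (TTCNNNGAA), the TATA box (TATAAA), the GC box (GGGCGG), the E-box (CACGTG) and the CArG box. The Cd44 window also held no CRE or core. The shares of all windows with a match were 17.8% for the core TGACG, 6.75% for AP-1, 7.02% for STAT, 12.4% for the TATA box, 32.7% for the GC box, 6.02% for the E-box and 1.47% for the CArG box. A match in these letters is a description of the window, and binding was not measured.

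Has1, 1 of the 3 mammalian hyaluronan synthases, showed the largest serum difference of the 3 genes in newly transcribed RNA. Levels here are log2 of the quantile normalized intensity plus 16. In newly transcribed RNA, Has1 read 4.34, 6.10, 6.01 and 5.62 in starved arrays 1 to 4 and 6.96, 7.65, 7.75 and 8.38 in treated arrays 1 to 4. Every treated array lay above every starved array. The difference was 2.17 ± 0.45 (SE, n = 4 against 4), or 4.5-fold, and ranked 6 of 12422 among differences in the upward direction. In total RNA, Has1 read 5.0, 4.65, 5.31 and 4.57 in starved and 5.10, 6.48, 6.88 and 6.82 in treated arrays. Treated array 1 lay below starved array 3, so the groups overlapped, while the other treated arrays stood above all starved ones. The difference in total RNA was 1.44 ± 0.39, or 2.71-fold. The starved total RNA arrays read Has1 between the percentiles 23.5 and 40.4. In amplified total RNA, Has1 read 5.31, 5.36 and 5.53 in starved and 5.58, 6.53, 6.51 and 7.48 in treated arrays, with no overlap and a difference of 1.13 ± 0.42. Treated array 1 was the lowest treated array in all 3 kinds of RNA. Ordered by mean level, Has1 stood highest in newly transcribed treated cells (7.69 ± 0.58, SD), followed by amplified treated (6.53 ± 0.78), total treated (6.32 ± 0.83), newly transcribed starved (5.52 ± 0.81), amplified starved (5.4 ± 0.11) and total starved cells (4.88 ± 0.34). Each neighbouring pair in that order overlapped except the last.

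Has2, the synthase known as the main source of hyaluronan in the embryo, had overlapping serum groups in all 3 kinds of RNA. Those of Has1 overlapped in total RNA only. In newly transcribed RNA Has2 read 7.78, 7.16, 8.14 and 8.53 in starved and 9.21, 8.28, 8.76 and 9.41 in treated arrays. The groups overlapped, since treated array 2 lay below starved array 4, but each treated array lay above the starved array of its own number, by 0.62 to 1.43. The difference was 1.01 ± 0.35 (SE, n = 4 against 4), or 2.02-fold, rank 112 of 12422. In total RNA, Has2 read 6.10, 5.86, 6.58 and 6.86 in starved and 7.01, 8.09, 6.63 and 8.54 in treated arrays. The arrays of number 3 differed by 0.05, the least, and those of number 2 by 2.23, the most. The difference was 1.22 ± 0.43, or 2.32-fold, with overlapping groups. In amplified total RNA, Has2 read 6.41, 6.05 and 7.08 in starved and 6.67, 7.42, 7.19 and 7.89 in treated arrays, again with overlap, and the difference was 0.78 ± 0.36. By mean level Has2 ran from newly transcribed treated (8.91 ± 0.50, SD) and newly transcribed starved (7.90 ± 0.58) through total treated (7.57 ± 0.89), amplified treated (7.30 ± 0.51) and amplified starved (6.51 ± 0.52) to total starved cells (6.35 ± 0.45). All neighbours in this order overlapped.

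**Figure D1:**
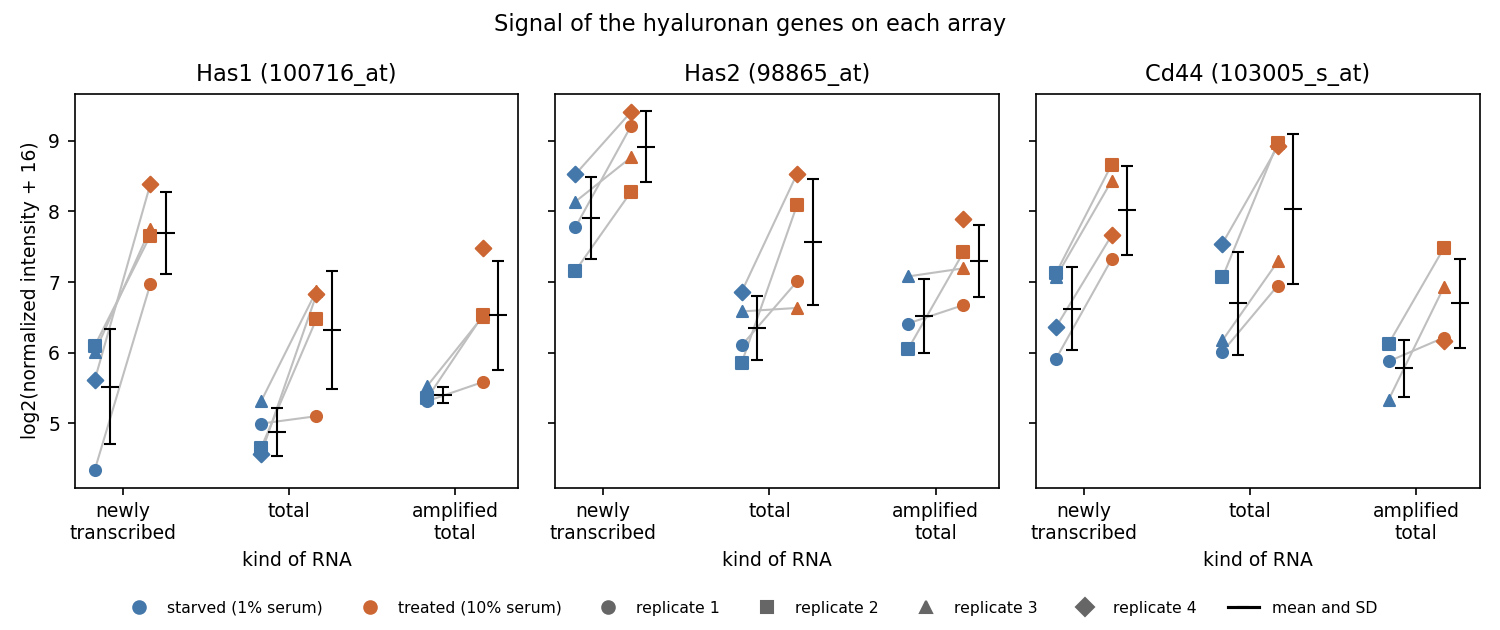
Level of Has1, Has2 and Cd44 (103005_s_at) on each array as log2(normalized intensity + 16), by kind of RNA; blue is starved (1% serum), orange treated (10% serum), symbols give replicate numbers, grey lines join arrays of the same number, and bars give mean and SD. Every joined line slopes upward, and in newly transcribed RNA the starved and treated arrays of Has1 (4.34 to 6.10 against 6.96 to 8.38) do not overlap.

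For Cd44, the receptor, the probe set 103005_s_at carried the signal, and its serum difference in newly transcribed RNA varied little between replicate numbers. It read 5.92, 7.13, 7.07 and 6.36 in starved and 7.32, 8.66, 8.43 and 7.66 in treated newly transcribed RNA. The groups did not overlap, and the 4 differences within numbers were 1.41, 1.53, 1.36 and 1.29. Their mean was 1.40 ± 0.39 (SE without pairing), or 2.63-fold, rank 40 of 12422. In total RNA, 103005_s_at read 6.01, 7.06, 6.17 and 7.54 in starved and 6.95, 8.97, 7.29 and 8.92 in treated arrays. Arrays 2 and 4 stood above arrays 1 and 3 in both serum conditions, so the groups overlapped, although each number had a positive difference, of 0.94, 1.91, 1.12 and 1.38. The difference was 1.34 ± 0.55, or 2.52-fold. In amplified total RNA the probe set read 5.88, 6.13 and 5.33 in starved and 6.21, 7.49, 6.93 and 6.17 in treated arrays, without overlap, and the difference was 0.92 ± 0.38. By mean level Cd44 stood highest in total treated (8.03 ± 1.06, SD) and newly transcribed treated cells (8.02 ± 0.63), followed by amplified treated (6.70 ± 0.63), total starved (6.70 ± 0.73), newly transcribed starved (6.62 ± 0.58) and amplified starved cells (5.78 ± 0.41). All neighbours in this order overlapped.

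The other Cd44 probe sets lay at the bottom of the scale, with signals too dim to match or oppose those of 103005_s_at. The added 16 shrinks differences there, but a smaller constant brought no rise in newly transcribed RNA, as given below. On the Affymetrix array the suffix _i marks a set with fewer probes than usual, _r one for which design rules were relaxed, and _s one whose probes may match several transcripts. Group means of 103003_i_at lay between the percentiles 0.47 and 4.96 of their arrays and its deposited intensities between 0.1 and 2.8. Group means of 103004_r_at lay between the percentiles 6.2 and 17.4, with deposited intensities of 0.9 to 9.3, against percentiles of 48.6 to 79.7 for 103005_s_at. In newly transcribed RNA the serum differences of 103003_i_at and 103004_r_at were -0.01 ± 0.10 and -0.03 ± 0.14, and in total RNA 0.07 ± 0.09 and 0.25 ± 0.11. With a pseudocount of 1 in place of 16, the total RNA differences were 0.64 ± 0.31 and 1.11 ± 0.37, of the same sign as the 1.48 ± 0.61 of 103005_s_at, and in newly transcribed RNA they were -0.03 ± 0.30 and -0.18 ± 0.46 against 1.56 ± 0.46. Neither set passed the threshold of an adjusted p of 0.05 by limma in any of the 8 comparisons. Values for Cd44 below are those of 103005_s_at, the brightest set.

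**Figure D2:**
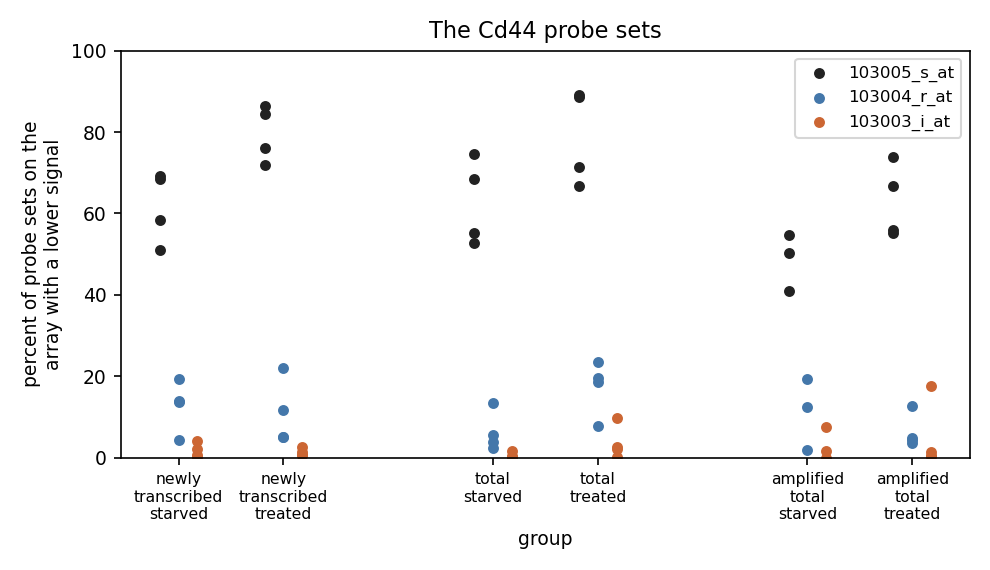
Position of the 3 Cd44 probe sets on each array, as the percent of probe sets on that array with a lower signal, by group; each point is 1 array. Group means of 103005_s_at run from 48.6% to 79.7%, while 103003_i_at and 103004_r_at lie near the bottom of the array in every group.

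Cd44 is also expressed by macrophages and other leukocytes, so their markers are given beside it. The summed normalized intensity of the 12 markers ran from 2222 to 5714 in starved and from 3722 to 7672 in treated newly transcribed arrays. In total RNA it ran from 3549 to 8395 in starved and from 3441 to 9039 in treated arrays, and in amplified RNA from 3704 to 10627 and from 4079 to 11255. The starved and treated ranges overlapped in each kind. By number 1 to 4, newly transcribed sums were 4294, 5714, 4250 and 2222 starved and 3845, 7672, 6694 and 3722 treated. In total RNA they were 3549, 7983, 4691 and 8395 starved and 3441, 8126, 8252 and 9039 treated. In both kinds the sum was thus higher with serum in numbers 2, 3 and 4 and lower in number 1. Amplified sums were higher with serum in numbers 1 and 3 and lower in number 2. With serum, 9 of the 12 markers had a positive difference in newly transcribed RNA (median 0.18). In total RNA it was 12 of 12 (median 0.22) and in amplified RNA 11 of 12 (median 0.24). Limma called 0 of the 12, paired or unpaired, in any kind. Their part in the Cd44 difference was not tested.

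Whether the serum differences stood out from the spread between arrays depended on pairing. Without pairing, 0 of the 5 member probe sets passed an adjusted p of 0.05 in newly transcribed RNA by limma, and neither did any other probe set (percent called 0, with 800 of 12422 at an unadjusted p below 0.05, the 3 brightest member sets among them). The adjusted p from limma was 0.374 for Has1, 0.673 for Has2 and 0.544 for Cd44. Arrays that share a number deviated from their group means in like ways. Arrays of unlike numbers were not compared, and newly transcribed arrays that share a number also share a cluster. A shared number was thus not told apart from a shared cluster. With the number as a block 3 of 5 member probe sets passed upward, where 0.91% of all probe sets did. In that paired limma fit Has1 rose by 2.17 ± 0.23 (adjusted p = 0.0261), Has2 by 1.01 ± 0.16 (adjusted p = 0.0417) and Cd44 by 1.40 ± 0.11 (adjusted p = 0.0163), each higher in 4 of 4 numbers. Has1 and Cd44 were 2 of the 5 whose starved and treated groups did not overlap, as did 2.13% of all probe sets in the upward direction.

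These paired calls did not hold when a replicate number was left out, apart from 1 case. Without 1 number at a time, the paired limma adjusted p ran from 0.0624 to 0.167 for Has1 and from 0.0691 to 0.214 for Has2, so both calls were lost whichever number was left out. For Cd44 it ran from 0.0463 to 0.14, and the call was kept without number 1 and lost without number 2, 3 or 4. The sizes moved little, to 1.97 to 2.38 for Has1, 0.87 to 1.14 for Has2 and 1.35 to 1.43 for Cd44. On values as deposited the paired differences were 1.85, 0.61 and 0.94, and limma called none of them (adjusted p = 0.202, 0.301 and 0.205). With a pseudocount of 1 they were 2.85, 1.06 and 1.56, and again none was called in the paired limma fit (adjusted p = 0.119, 0.153 and 0.112). Within the clusters the differences in newly transcribed RNA were 2.69 and 1.65 for Has1, 1.15 and 0.87 for Has2 and 1.35 and 1.44 for Cd44, in the order of the clusters given above and over 2 starved and 2 treated arrays each.

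In total RNA 0 of 5 member probe sets passed without pairing, where 0.121% of all probe sets did. An unadjusted p below 0.05 by limma was found for 3 of 5, and for 614 of all 12422 probe sets. With the replicate number as a block 0 of 5 passed, where 0.459% of all passed upward. The paired differences were 1.44 ± 0.34 for Has1 (adjusted p from limma 0.241), 1.22 ± 0.35 for Has2 (0.313) and 1.34 ± 0.17 for Cd44 (0.0513), so that Cd44 missed the threshold narrowly. Each was positive in 4 of 4 numbers. Has1 passed without pairing once treated array 1 was left out (1.85, adjusted p = 0.0456 by limma). None of the 5 had groups that did not overlap, against 1.52% of all probe sets in the upward direction. In amplified total RNA 0 of 5 passed by limma, as did no other probe set (percent called 0, with 175 at an unadjusted p below 0.05, Has1 and Cd44 among them). Has1 and Cd44 had groups that did not overlap there, as did 1.26% of all probe sets upward. Within the clusters the differences in amplified RNA were 1.11 and 1.16 for Has1, 0.54 and 1.26 for Has2 and 0.59 and 1.08 for Cd44, with 1 starved array in the second cluster.

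**Figure D3:**
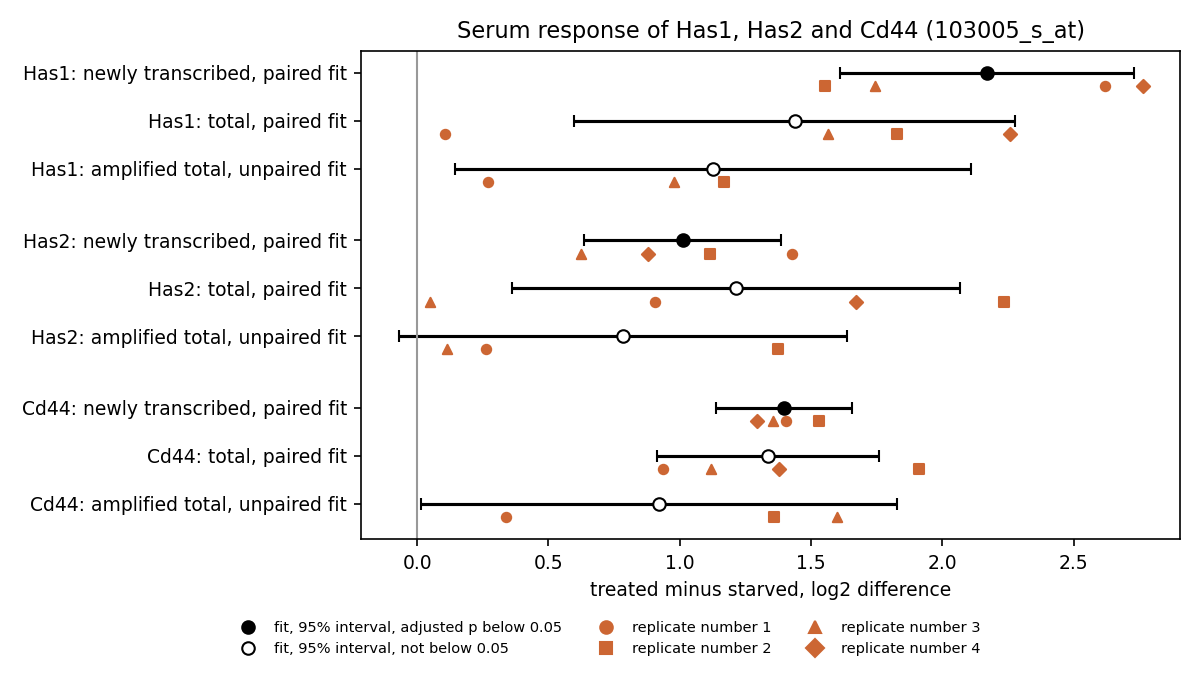
Serum response (treated minus starved, log2) of Has1, Has2 and Cd44 (103005_s_at) in each kind of RNA; circles with bars are the fitted difference and its 95% interval, filled where the adjusted p is below 0.05, and orange symbols are the differences within single replicate numbers. All differences within numbers lie above 0, and the filled circles are the 3 paired fits in newly transcribed RNA (2.17, 1.01 and 1.40).

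The difference between the serum response in newly transcribed and in total RNA was tested directly. No member probe set passed by limma with or without the replicate block, and neither did any other probe set (percent called 0 in both fits, with 299 and 1343 at an unadjusted p below 0.05). Has1 had 0.73 ± 0.45 more response in newly transcribed RNA in the paired fit (95% interval -0.28 to 1.74). The value was -0.20 ± 0.41 for Has2 (-1.12 to 0.71) and 0.06 ± 0.21 for Cd44 (-0.41 to 0.53). The interval of Cd44 was thus the narrowest of the 3, and that of Has1 reached furthest above 0. Against amplified total RNA, unpaired, the differences of response were 1.04 ± 0.64 for Has1 (-0.35 to 2.44), 0.23 ± 0.52 for Has2 (-0.90 to 1.36) and 0.48 ± 0.57 for Cd44 (-0.76 to 1.71). Here too limma called 0 of 5 members and no other probe set (percent called 0, with 201 at an unadjusted p below 0.05).

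Newly transcribed RNA was next set against amplified total RNA within each serum condition, which compares the RNA made in 2 h with the pool. Newly transcribed RNA alone went through the organomercurial capture. These comparisons use the same newly transcribed and amplified arrays as the serum comparisons. In treated cells Has2 was higher in newly transcribed RNA by 1.62 ± 0.33 (adjusted p = 0.038 by limma), or 3.07-fold, and its groups did not overlap. It was the 1 member probe set of 5 called without pairing, where 1.22% of all probe sets were called higher, and the 1 of 5 with groups apart, against 4.56% of all. With the replicate number as a block 3 of 5 members were called higher, where 11.1% of all probe sets were. In that fit limma gave Has1 1.16 ± 0.15 (adjusted p = 0.00579), Has2 1.62 ± 0.27 (adjusted p = 0.0122) and Cd44 1.32 ± 0.15 (adjusted p = 0.0048). Has1 and Cd44 were called in that fit without any 1 of the 4 numbers. Has2 was called without number 1 or 2 and not without number 3 or 4, and unpaired it was called only without amplified treated array 4 or newly transcribed treated array 2 (adjusted p from 0.0377 to 0.102 over the 8 arrays).

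In starved cells no member was called. Has2 was 1.39 ± 0.38 higher in newly transcribed RNA (adjusted p = 0.109 by limma), with groups that did not overlap, as in 7.7% of all probe sets. Cd44 was 0.84 ± 0.36 higher (adjusted p = 0.276) and Has1 0.12 ± 0.43 (adjusted p = 0.929, 95% interval -0.89 to 1.12). Limma called 0 of 5 members there and 3.17% of all probe sets. An unadjusted p below 0.05 by limma was found for 1 of 5 members and for 2265 of all 12422 probe sets, which are like shares. For Has1, the newly transcribed level was thus not told apart from the amplified pool in starved cells, with a wide interval. In treated cells Has1 was called higher in the paired fit only. Unpaired it gave 1.16 ± 0.44 (adjusted p = 0.209 by limma), with overlapping groups. The difference between the starved and treated differences of Has1 is the 1.04 ± 0.64 given above, which did not pass.

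Amplified total RNA was also set against total RNA, with the serum condition as a term. The cause of differences between these 2 kinds was not tested. Cd44 was lower in amplified than in total RNA by -1.14 ± 0.36 (adjusted p = 0.0361 by limma), to 0.453 of its total level on the value + 16 scale. Has1 (0.35 ± 0.29) and Has2 (-0.07 ± 0.30) were not called. This made 1 of 5 members called lower, where 9.76% of all probe sets were. Leaving out 1 array at a time moved the Cd44 difference from -1.31 to -0.97 and its adjusted p from 0.02 to 0.0749. The call held in 7 of 15 cases; it was lost without amplified starved 1 or 3, amplified treated 1 or 4, total starved 2 or 4, or total treated 2 or 4.

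The genes around hyaluronan were examined by role, from lists of 51 genes of which 34 were measured, each by its brightest probe set. In newly transcribed RNA 16 of 34 had a positive serum difference, and the median was -0.03 against 0.01 for all probe sets. Limma called 0 of 34 without pairing, as for all probe sets, and with pairing 1 higher and 0 lower. In total RNA 21 of 34 were positive with a median of 0.02 against -0.01, and in amplified RNA 17 of 34 with 0.01 against -0.01, and 0 were called in either, paired or unpaired. The lists as a whole lay near the median of the array. Mean percentiles of the 34 genes ran from 8.9 (Ambp) to 97.6 (Ugdh). Several genes, such as Ambp, Itih1 (11.1) and Lyve1 (13.6), lay where the added 16 shrinks differences, so small values and missing calls say little about them.

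Has3, the remaining synthase, was not called in any kind of RNA. Its paired serum difference was -0.16 ± 0.14 in RNA made during labelling and 0.10 ± 0.16 in the total pool, and unpaired in amplified RNA it was -0.22 ± 0.41. Of the enzymes that supply UDP sugars, 5 of 7 were measured. The called gene was Gfpt2, an isoform of the rate-limiting enzyme of the hexosamine pathway, which rose by 1.32 ± 0.20 in newly transcribed RNA in the paired fit (adjusted p = 0.0416 by limma). That call was lost without any 1 of the 4 numbers (adjusted p from 0.0649 to 0.209 by limma, differences of 1.12 to 1.47), on values as deposited (0.84, adjusted p = 0.219) and with a pseudocount of 1 (1.40, adjusted p = 0.136). In total RNA Gfpt2 gave 0.69 ± 0.26 (adjusted p = 0.424). Ugdh, which makes UDP-glucuronic acid, gave 0.69 ± 0.25 in newly transcribed RNA (adjusted p = 0.186) and 0.74 ± 0.10 in total RNA (adjusted p = 0.0519), both in paired limma fits and neither called. The 5 measured genes all had positive differences in total RNA and 3 of 5 in newly transcribed RNA.

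None of the 4 measured breakdown genes of 9 listed was called. The largest difference in newly transcribed RNA was 0.15 ± 0.19 for Hyal2, a hyaluronidase anchored at the cell surface, and the smallest -0.50 ± 0.11 for Hexa, a lysosomal hexosaminidase subunit. Of hyaluronan-binding matrix proteins 13 of 17 were measured and 0 were called. Tnfaip6, which transfers protein chains onto hyaluronan, had the largest difference, 1.11 ± 0.34, and Ptx3, a pentraxin that cross-links the hyaluronan matrix, the smallest, -1.07 ± 0.29. Of the other receptors, 3 of 8 were measured, and Stab1, a scavenger receptor, gave 0.47 ± 0.18 and Lyve1, the lymphatic receptor, -0.38 ± 0.11. Of the proteins that anchor, cleave or bind CD44, 8 of 9 were measured, and the range ran from 0.68 ± 0.25 for Mmp9, a protease that docks on CD44, to -0.48 ± 0.12 for Adam10, which sheds its outer part. None of these was called by limma in newly transcribed or total RNA. Lyve1 and Mmp9 were dim, at mean percentiles of 13.6 and 24.5, and Tnfaip6 was read by an _r set at 41.2.

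**Figure D4:**
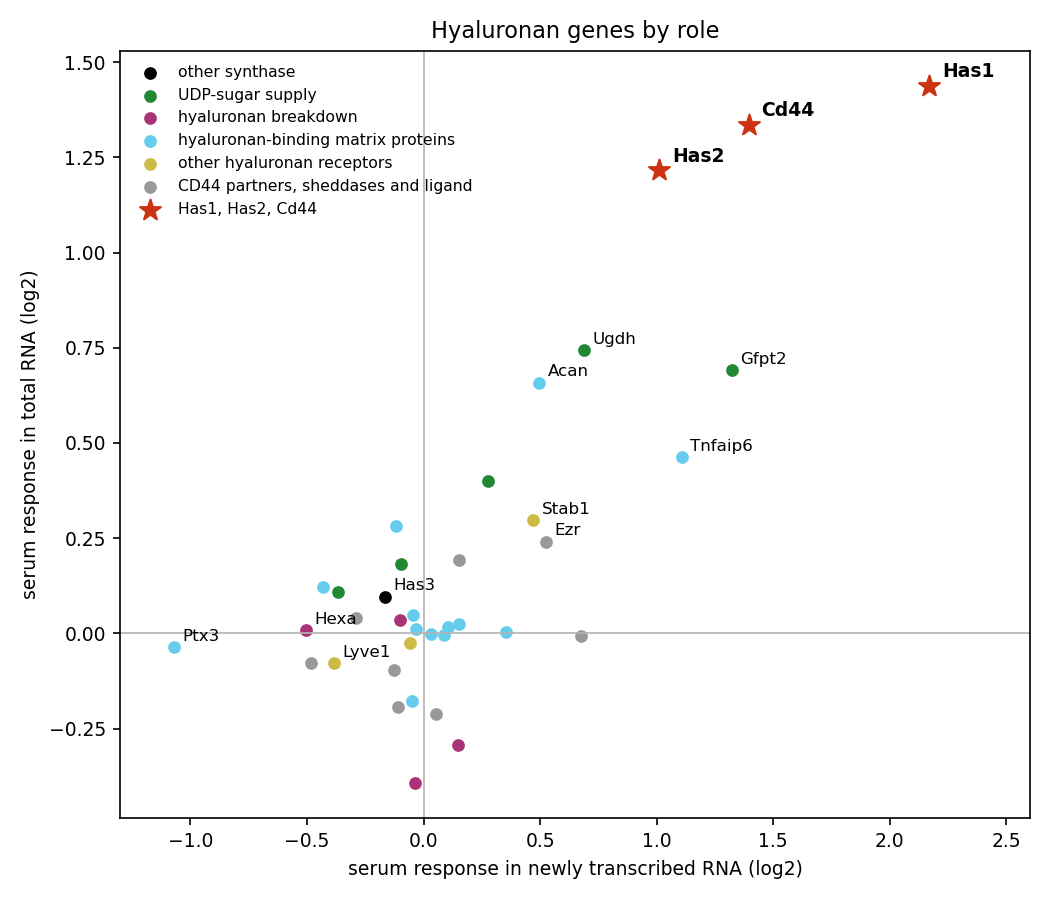
Serum response (log2, treated minus starved) in newly transcribed RNA against that in total RNA for the 34 measured hyaluronan genes, coloured by role, and for Has1, Has2 and Cd44 (stars). The 3 stars lie at the upper right (Has1 at 2.17 and 1.44), and Gfpt2 (1.32 and 0.69), Tnfaip6 (1.11 and 0.46), Ugdh (0.69 and 0.74) and Acan (0.50 and 0.66) lie on the same side of the cloud near 0, with lower total RNA responses than the stars; the groups of genes were chosen with earlier results known.

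Between newly transcribed and amplified RNA of treated cells, the paired limma fit called 4 of the 34 genes higher and 3 lower, against 1376 and 1250 of all 12422 probe sets, which are like shares. Without pairing limma called 1 of the 34 higher (Gfpt2, adjusted p = 0.0251) and 1 lower (Gusb, adjusted p = 0.0246). Of all 12422 probe sets it called 152 higher and 351 lower. Gfpt2 (1.70), Tnfaip6 (0.94), Hyal2 (0.90) and Ugdh (0.87) were higher in newly transcribed RNA. Hexa (-1.80), Gusb (-1.55), both lysosomal enzymes, and Vcan (-1.14), a large hyaluronan-binding proteoglycan, were lower.

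Across the 23 arrays, with the mean of each kind of RNA taken out, the patterns of the members were compared with those of every other gene with 1 symbol. Pearson's r was 0.69 between Has1 and Has2, 0.69 between Has1 and Cd44 and 0.59 between Has2 and Cd44. These arrays share the serum contrast and the kinds of RNA, so the values are descriptions. The genes most like Has1 were Sstr2, a somatostatin receptor (0.86), Il11, a cytokine (0.84), and Tgfbi, a secreted matrix protein (0.82). Those most like Has2 were Hbegf, an EGF family growth factor (0.82), Inhba, the activin A subunit (0.81), and Tec, a tyrosine kinase (0.81). Those most like Cd44 were Plaur, the urokinase receptor (0.93), Acta1, skeletal muscle actin (0.92), and Pvr, an adhesion receptor of the nectin group (0.91). In newly transcribed RNA the paired serum differences of the genes most like Has1 were 1.66 ± 0.17 for Sstr2, 2.25 ± 0.34 for Il11 and 2.12 ± 0.21 for Tgfbi. They were 1.78 ± 0.30 for Hbegf, 1.91 ± 0.31 for Inhba and 0.33 ± 0.17 for Tec, and 1.66 ± 0.12 for Plaur, 2.10 ± 0.33 for Acta1 and 1.07 ± 0.17 for Pvr. The serum contrast was part of the likeness that chose these genes, so their serum differences are descriptions as well.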

How the data were processed

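RNA of 23 samples was hybridised to Affymetrix arrays after biotin labelling, per the labels. The values deposited by the authors are 1 linear signal intensity per probe set and array; the summarising software and any scaling are not given in the sources used here. Without the 66 control probe sets, 12422 were tested. Arrays were quantile normalized because their medians differed, and log2(value + 16) was taken, a scale that shrinks changes of dim probe sets. The number of arrays limits the precision.

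Groups came from the titles. Two-sided limma tests (version 3.58.1, lmFit with eBayes, under R 4.3.3) were run on the arrays of the groups compared, with Benjamini-Hochberg adjustment over 12422 probe sets in each of 8 comparisons and a threshold of 0.05. Differences are log2 ± SE of the fit, and folds are taken on the value + 16 scale. The members and gene lists were chosen with earlier results of these data known.

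The replicate numbers were checked as pairs by correlating deviations from group means over all probe sets. Every pair exceeded 0.1 in newly transcribed RNA (0.70 to 0.80), in total RNA (0.23 to 0.70) and between newly transcribed and amplified treated arrays (0.56 to 0.73), and the pairing comes from the data alone. Arrays of unlike numbers were not correlated, so for newly transcribed arrays the check cannot tell a shared number from a shared cluster. The comparisons whose pairs all exceeded 0.1 are given with the number as a block beside the fit without it.

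Probe sets were named through a platform annotation table, in which 10833 had 1 symbol (8251 genes), 396 several and 1193 were not listed. The brightest probe set stood for a gene. Named genes were the members, Has3, pathway genes called in a serum comparison or, in lists without a call, those with the largest and smallest change in newly transcribed RNA, and the 3 genes most like each member; Ugdh, Gusb, Vcan and the other genes called between newly transcribed and amplified RNA were named after their values were seen. Alternatives tried were values as deposited, median scaling, pseudocounts of 1 and 64, leaving out the dimmer probe sets, 1 fit over all arrays, the array cluster or replicate number as a block, and leaving out arrays or pairs. The fitting was tested on simulated data. Promoter windows came from RefSeq, GRCm38.p6, and matched 2 of 3 members.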

Additional observations from a re-analysis of the deposited data

Results flagged for a closer look

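Among 25 groups of 4 arrays that were examined for an array standing apart from the rest, 2 did so, both in the dim Cd44 probe sets in amplified treated RNA; by chance about 1 in 20 groups would. For 103003_i_at, array 1 was highest at 4.39, and its gap to the next array took up 0.92 of the group's range. For 103004_r_at, array 2 was highest at 4.27, with a gap of 0.864 of the range. Both exceed the limit for 4 values of Dixon's test. Both values lie near the lower end of the scale.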

How the results depend on the processing

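The serum differences of Has1, Has2 and Cd44 (103005_s_at) kept a positive sign in every kind of RNA under every alternative run. Member calls moved. In newly transcribed RNA 0 member probe sets passed by limma (800 of all probe sets at an unadjusted p below 0.05), 1 (Has1) in 1 fit over all arrays and 3 with the replicate block, and the calls over all probe sets went from 0 to 30 and 216. The replicate block on values as deposited or with a pseudocount of 1 gave 0 member calls and 0 over all probe sets there. Leaving out arrays or pairs gave 0 to 1 there, 0 to 1 in total RNA, 0 to 3 between newly transcribed and amplified RNA of treated cells, and 0 to 1 for amplified against total RNA. The count in treated cells, 1, became 0 on values as deposited, with median scaling, with a pseudocount of 1 and with the replicate block on values as deposited, 2 with the array cluster as a block, and 3 with the replicate block alone or with a pseudocount of 1. Calls over all probe sets there went from 503 to 0 as deposited and 2626 with the block. In starved cells 0 became 1 with the array cluster as a block, and 394 calls over all probe sets became 0 with the replicate block, as deposited or with a pseudocount of 1. The count for amplified against total RNA, 1, became 0 on values as deposited, with median scaling and with a pseudocount of 64. The cause of these changes was not tested. As deposited, the median of all probe sets shifted by -0.18, 0.21 and 0.25 with serum in newly transcribed, total and amplified RNA, by -0.45 and -0.53 in the differences of response, and by 0.35 in starved cells.

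Values that turned sign were small or not called. The serum response became 0.017 for 103003_i_at and 0.012 for 103004_r_at with median scaling in newly transcribed RNA, and -0.0047 for 103003_i_at as deposited in amplified RNA. The excess of the newly transcribed over the total response became -0.64 for Cd44 103005_s_at as deposited, with or without the replicate block. Its excess over the amplified response became, as deposited, Has2 -0.58, 103003_i_at 0.0028, 103004_r_at -0.0017 and 103005_s_at -0.24, and with the replicate block Has2 -0.0016 and 103005_s_at -0.14. Newly transcribed against amplified RNA in starved cells gave 103004_r_at -0.063 with median scaling, Has1 -0.048 with a pseudocount of 1, and with the replicate block added Has1 -0.17 and 103003_i_at 0.015. Amplified against total RNA gave Has2 0.034 with median scaling, 0.026 with the replicate block and 0.047 with the block and a pseudocount of 1.

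With arrays or pairs left out, ranges that crossed 0 were, for 103003_i_at, -0.00025 to 0.075 (amplified against total), -0.060 to 0.039 and -0.10 to 0.015 (newly transcribed against amplified, starved and treated), -0.18 to 0.073 (response against amplified), -0.072 to 0.18 (response in amplified) and -0.021 to 0.011 (in newly transcribed RNA). For 103004_r_at they were -0.069 to 0.11 (starved), -0.0096 to 0.19 (response against amplified), -0.23 to 0.022 (in amplified) and -0.11 to 0.024 (in newly transcribed RNA). For 103005_s_at they were -0.086 to 0.74 and -0.30 to 0.37 (response against amplified and total), for Has1 -0.25 to 0.61 (starved), and for Has2 -0.21 to 0.17 (amplified against total), -0.054 to 0.79 and -0.52 to 0.12 (response against amplified and total).

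In the amplified serum comparison, amplified against newly transcribed starved arrays and amplified against total starved arrays the numbers were not shown to pair (lowest correlation for the last 0.071), while amplified against total treated arrays all exceeded 0.1 (0.14 to 0.30). In the amplified serum comparison the replicate block gave serum responses of 0.81 for Has1, 0.58 for Has2 and 1.10 for Cd44 (adjusted p = 0.872 by limma for each), and in all of these comparisons the block changed no member call. The array cluster as a block was not run for amplified against total RNA, since total arrays have no cluster. With the mean of each kind of RNA left in, the closest genes shared with those named were 1 of 3 for Has1, 0 of 3 for Has2 and 1 of 3 for Cd44.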
